A study of Mus musculus with 3 samples.

Results

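Endothelial cells line the retinal vessels, and 10 of their genes were followed here across the study: 4 adhesion molecules for leukocytes that inflammatory cytokines induce (Icam1, Vcam1, Sele and Selp) and 6 genes that mark resting endothelium (Icam2, Cdh5, Pecam1, Emcn, Esam and Vwf). The members were chosen by symbol. Each of the 10 had 1 probe set annotated to that symbol alone, out of 22180 genes measured in this way. Retinae came from C57 mice whose eyes had received an agent in the vitreous, and pools of 5 to 6 retinae were each run on 1 Affymetrix whole-transcript array, 3 arrays and 3 groups in all. One array held retinae taken 2 hr after cavtratin, a peptide built to enter cells with the caveolin-1 scaffolding domain, and one held retinae taken 2 days after Cav1-shRNA, a short hairpin RNA named for the caveolin-1 transcript. The third held retinae taken 2 hr after AP, which the labels name as the control without spelling it out. The labels place this control at the time of cavtratin, so Cav1-shRNA differed from it in time as well as in agent, and the effects of these cannot be told apart. No array of a control hairpin was analysed here.

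Leukocytes leave the blood in steps. E-selectin (Sele) and P-selectin (Selp) on activated endothelium bind carbohydrate-bearing ligands on leukocytes, which then roll. ICAM-1 (Icam1) and VCAM-1 (Vcam1) bind leukocyte integrins and hold the cells firm, and PECAM-1, VE-cadherin (Cdh5), ICAM-2 and ESAM stand at or near the junctions through which they pass. Retinal vessels form the inner blood-retina barrier and are known to carry little adhesion molecule at rest, and induced ICAM-1 there is known from models of uveitis and diabetes.

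No group was replicated and no test was run, so every difference below is one between 2 arrays, not between conditions. Values are the authors' deposited values, read as log2. A difference of 1 is then a doubling. The expression floor used below, 6.50, was the median over probe sets with 1 symbol. The array medians were 6.06 in cavtratin, 6.01 in the array labelled Cav1-shRNA and 6.07 in AP control, and the arrays correlated over all probe sets with Pearson's r of 0.9947 to 0.9954. Exactly equal values in all 3 arrays were found in 41.4% of probe sets, so an equal value does not show an equal level. Cav1 itself was at 8.26 in all 3 arrays, so the array labelled Cav1-shRNA showed no lower value of the targeted gene. Rod photoreceptor genes, which define retina, were present, with 8 of 8 measured above the floor in all 3 arrays. Of 30 other endothelial markers, 17 reached the floor in cavtratin or AP control, beside 11477 of all 22180 genes. The 2 shares are close, so this count alone does not show how well endothelium was represented. The cavtratin array stood apart in lens genes, of which 11 of 13 were higher than in AP control, and in myeloid genes, both given below.

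Promoter sequence from RefSeq (assembly GRCm38.p6) was at hand for 4 of the 10 members, Icam1, Sele, Selp and Emcn. The stretches of the 3 inducible ones are shown because those 3 genes had their highest value on the same array, as described below. Each is the 250 bases before the annotated start, on the plus strand, at chr9:21015690-21015939 for Icam1, chr1:164047984-164048233 for Sele and chr1:164115014-164115263 for Selp. Capitals mark matches, on either strand, to 2 forms of the NF-kB motif (GGG, then 2 bases of any kind, then TTTCC, or the letters GGAAATTCC), the AP-1 letters TGANTCA and the TATA box letters TATAAA.
Icam1: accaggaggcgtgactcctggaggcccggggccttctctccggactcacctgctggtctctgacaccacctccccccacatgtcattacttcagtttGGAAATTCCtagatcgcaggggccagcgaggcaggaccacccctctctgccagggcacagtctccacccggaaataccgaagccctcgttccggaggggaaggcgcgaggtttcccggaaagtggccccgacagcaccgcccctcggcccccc
Sele: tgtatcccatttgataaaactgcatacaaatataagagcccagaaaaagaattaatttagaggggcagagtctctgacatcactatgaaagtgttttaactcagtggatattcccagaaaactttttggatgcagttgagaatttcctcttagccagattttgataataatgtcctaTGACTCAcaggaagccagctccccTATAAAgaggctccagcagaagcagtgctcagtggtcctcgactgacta
Selp: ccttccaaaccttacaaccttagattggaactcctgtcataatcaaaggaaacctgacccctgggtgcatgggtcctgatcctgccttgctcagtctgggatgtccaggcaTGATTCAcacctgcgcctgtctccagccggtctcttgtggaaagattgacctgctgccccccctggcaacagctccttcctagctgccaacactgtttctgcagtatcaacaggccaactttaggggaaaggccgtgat
In Icam1 the match was GGAAATTCC, whose first base lies 153 bases before the start. These letters were chosen after the Icam1 sequence had been seen, and 0.286% of 32851 promoter stretches of this length hold them. Sele held an AP-1 match 73 bases and a TATA box match 49 bases before the start, and Selp held an AP-1 match 139 bases before it. The AP-1 letters occur in 6.75% and the TATA box letters in 12.4% of all such stretches. The first NF-kB form, found in 1.41% of them, had 0 matches in the 4 members, and Emcn had 0 matches to any of the 4 motifs. A match describes these letters only, and its absence describes only these exact letters in this window. Other spellings of the NF-kB motif were not searched, so the lack of capitals in Sele and Selp does not show a lack of such sites.

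All 4 inducible adhesion molecules had their highest value in AP control, and 5 of the 6 constitutive genes had their lowest value there. Over all 22180 genes, where ties between arrays lower both shares, AP control was the highest array in 12% and the lowest in 12%. Esam, equal in all 3 arrays, was the exception. The plot of the members by array shows this order. Both comparisons with AP control use the same array, so its own deviation enters both.

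**Figure D1:**
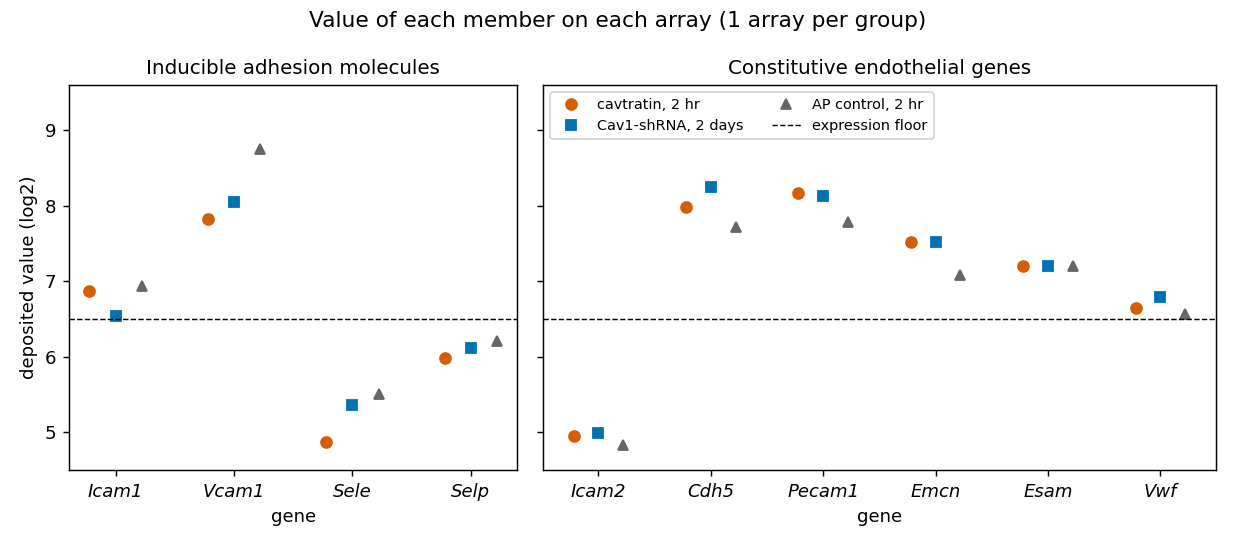
Deposited log2 value of each of the 10 members on each array (points: cavtratin, Cav1-shRNA and AP control from left to right, 1 array each), with the expression floor of 6.50 as a dashed line. Vcam1 stood at 7.83, 8.05 and 8.75, while Cdh5 stood at 7.99, 8.24 and 7.72. Sele, Selp and Icam2 lay below the floor on all 3 arrays.

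Vcam1, the endothelial ligand of the integrin alpha4 beta1, had the largest spread of the 10 over the arrays. Its value was 7.83 in cavtratin, 8.05 in the array labelled Cav1-shRNA and 8.75 in AP control. AP control was thus the highest of the 3, and the other arrays lay close to each other. The difference from AP control was −0.92 in cavtratin, a ratio of 0.529, and −0.70 in the array labelled Cav1-shRNA, a ratio of 0.615. Among 11477 genes that reached the floor in cavtratin or AP control, 14 (0.122%) had a difference at least as far on the lower side, Vcam1 included. In the comparison of the array labelled Cav1-shRNA with AP control they were 34 of 11433 (0.297%). The arrays hold whole retina, and which of its cells gave the Vcam1 signal was not tested.

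Icam1, the ligand of the leukocyte beta2 integrins LFA-1 and Mac-1, did not follow the same order. It was at 6.88 in cavtratin, 6.54 in the array labelled Cav1-shRNA and 6.94 in AP control. Here the 2 arrays taken at 2 hr lay together and the array labelled Cav1-shRNA was lowest, just above the floor. The difference from AP control was −0.059 in cavtratin and −0.40 in the array labelled Cav1-shRNA. On the lower side, 11.4% of genes reaching the floor were as far from AP control as Icam1 in cavtratin, and 0.752% were as far in the array labelled Cav1-shRNA. Icam1 is also made by glia, pigment epithelium and leukocytes, and in pooled tissue fewer cells of a type cannot be told apart from less RNA per cell.

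Sele, which encodes the selectin that only activated endothelium displays, was at 4.87 in cavtratin, 5.37 in the array labelled Cav1-shRNA and 5.51 in AP control. Cavtratin was lowest, with differences from AP control of −0.63 in cavtratin and −0.14 in the array labelled Cav1-shRNA. Every value lay below the floor, where a difference can be too small and its order is not firm. Selp, stored as protein in Weibel-Palade bodies of endothelium and in platelet granules and induced by cytokines in the mouse, was at 5.99, 6.11 and 6.21 in the same order of arrays. Its differences from AP control were −0.22 in cavtratin and −0.10 in the array labelled Cav1-shRNA, again below the floor throughout. Over all 22180 genes, 0.185% were as far on the lower side as Sele in cavtratin and 1.96% as far as Selp. In the array labelled Cav1-shRNA these shares were 4.43% for Sele and 6.27% for Selp.

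Among the genes at the junctions, Cdh5, the adhesive cadherin of endothelial adherens junctions, was at 7.99 in cavtratin, 8.24 in the array labelled Cav1-shRNA and 7.72 in AP control. The 3 values were spaced almost evenly, with the array labelled Cav1-shRNA highest. Differences from AP control were 0.27 in cavtratin and 0.53 in the array labelled Cav1-shRNA, and the second is a ratio of 1.44. Of genes that reached the floor, 4.16% were as far on the higher side in cavtratin and 1.05% in the array labelled Cav1-shRNA.

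Pecam1, a homophilic adhesion molecule of endothelial junctions that platelets and myeloid cells also carry, was at 8.17 in cavtratin, 8.13 in the array labelled Cav1-shRNA and 7.78 in AP control. Cavtratin and the array labelled Cav1-shRNA lay together above AP control, by 0.38 in cavtratin and 0.35 in the array labelled Cav1-shRNA. Emcn, a sialomucin of venous and capillary endothelium known to hinder leukocyte adhesion, was at exactly the same value of 7.52 in cavtratin and in the array labelled Cav1-shRNA, against 7.09 in AP control. Its difference was therefore 0.43 in both comparisons with AP control. Such exact ties are frequent in this table and give no measure of likeness. On the higher side, 3.1% of genes reaching the floor were as far as Pecam1 and 2.88% as far as Emcn in cavtratin, and 1.88% and 1.39% in the array labelled Cav1-shRNA.

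Vwf, which encodes the multimeric clotting protein of Weibel-Palade bodies, was at 6.65 in cavtratin, 6.79 in the array labelled Cav1-shRNA and 6.57 in AP control, close above the floor. Its differences from AP control were 0.080 and 0.22 for cavtratin and the array labelled Cav1-shRNA. As far on the higher side were 9.42% and 3.52% of genes reaching the floor. Icam2, a ligand of LFA-1 present on resting endothelium, was at 4.95 in cavtratin, 4.99 in the array labelled Cav1-shRNA and 4.84 in AP control, with every value below the floor. Over all genes 7.24% were as far on the higher side in cavtratin and 5.68% in the array labelled Cav1-shRNA. Esam, an immunoglobulin-family molecule of tight junctions, was at 7.20 in all 3 arrays. The constitutive genes thus ranged from no difference to 0.53 above AP control.

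As groups, the inducible members had a median difference of −0.43 in cavtratin against AP control and the constitutive members one of 0.19. In the array labelled Cav1-shRNA against AP control these medians were −0.27 and 0.29. The gap between the medians, inducible minus constitutive, was −0.62 in the first comparison and −0.55 in the second. The inducible median in cavtratin is the midpoint of Sele and Selp, both below the floor on every array. In the array labelled Cav1-shRNA it is the midpoint of Icam1 and Sele. Over Icam1 and Vcam1 alone, which reached the floor, it was −0.49 in cavtratin and −0.55 in the array labelled Cav1-shRNA. Over all genes the median was 0 in both comparisons. All 4 inducible members were lower than AP control in cavtratin, where 20.9% of all genes were lower, and all 4 in the array labelled Cav1-shRNA, where 18.5% were lower. Of the 6 constitutive members, 5 were higher in each comparison, beside 17.5% of all genes in cavtratin and 22.4% in the array labelled Cav1-shRNA. These shares are low partly because exact ties with AP control made up 61.6% and 59.1% of all genes. Of the members only Esam was tied with AP control. No member was at least 2-fold apart in any comparison, while 1.46% of genes that reached the floor were so in cavtratin against AP control and 0.464% in the array labelled Cav1-shRNA against AP control. With a threshold of 1.5-fold Vcam1 was the 1 member counted, on the lower side, in both comparisons, where 0.235% and 0.367% of genes reaching the floor were counted as lower. Sele, at a ratio of 0.645 in cavtratin against AP control, was beyond 1.5-fold too but was not counted, being below the floor.

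**Figure D2:**
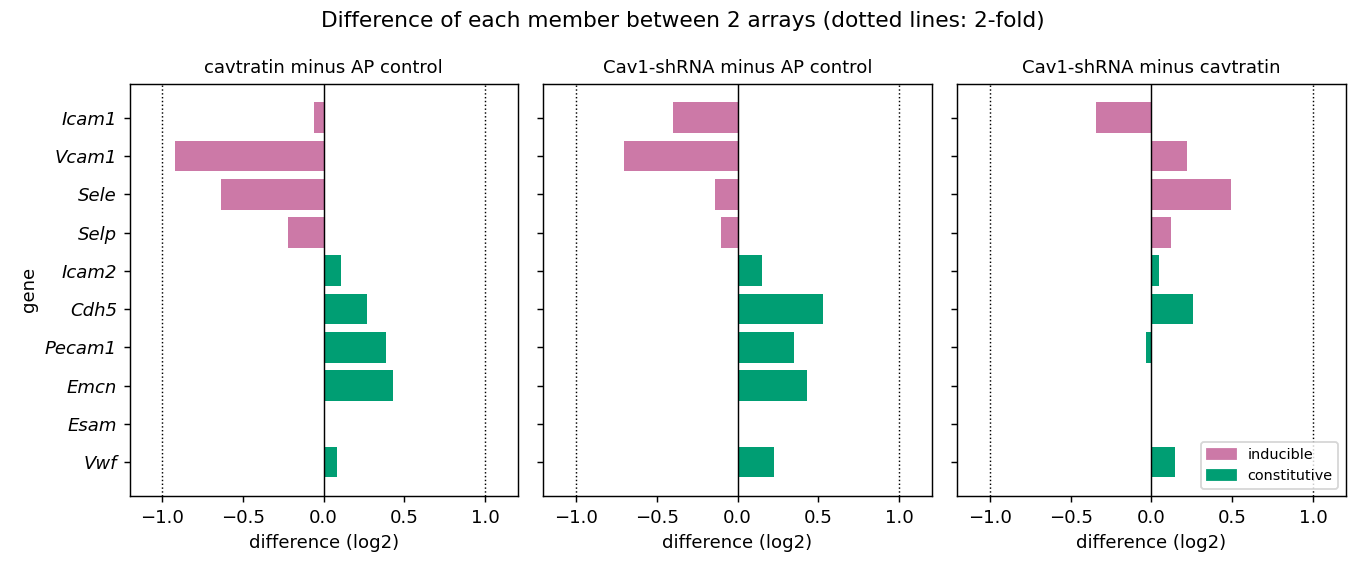
Difference of each member between 2 arrays on the log2 scale, for cavtratin minus AP control, Cav1-shRNA minus AP control and Cav1-shRNA minus cavtratin (bars; pink for inducible, green for constitutive members; dotted lines at a 2-fold difference). In both comparisons with AP control the 4 inducible members lie left of 0 and 5 constitutive members right of it, and no bar reaches 2-fold.

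A measure of technical and isoform spread was available from genes that had more than 1 probe set reaching the floor. Differences of probe sets of one gene had an SD of 0.12 over 279 genes for cavtratin against AP control and 0.082 over 274 genes for the array labelled Cav1-shRNA against AP control. Of the members that reached the floor, Icam1, Esam and Vwf lay within that SD in cavtratin against AP control. Vcam1, Cdh5, Pecam1 and Emcn lay beyond it. In the array labelled Cav1-shRNA against AP control Esam alone of these members lay within it. The SD does not cover Sele, Selp and Icam2, which lay below the floor. In some genes the range over probe sets reached 0.35 in cavtratin and 0.31 in the array labelled Cav1-shRNA against AP control. Of the members beyond the SD, only Cdh5 in cavtratin, at 0.27, and Vwf in the array labelled Cav1-shRNA, at 0.22, did not reach those percentiles. This SD holds no spread between animals or pools, so it is no replicate error. The histogram of all genes sets the members against the whole table.

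**Figure D3:**
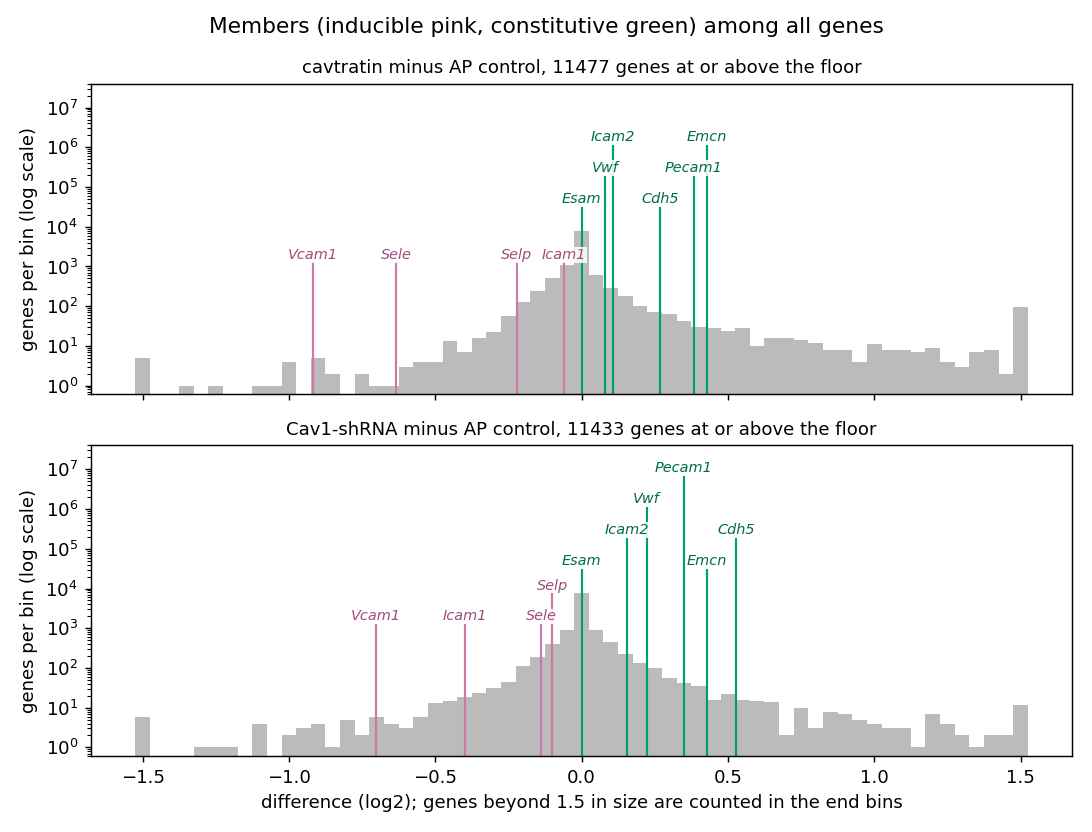
Histograms of the log2 difference over genes at or above the floor, 11477 for cavtratin minus AP control and 11433 for Cav1-shRNA minus AP control (grey bars, number of genes per bin on a log axis), with the members as vertical lines whose heights carry no value. Vcam1 stands at −0.92 and −0.70 in the sparse lower tail, and Cdh5, Pecam1 and Emcn stand between 0.27 and 0.53 on the higher side. Sele, Selp and Icam2 are drawn but are not counted in the bars, being below the floor.

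Between the array labelled Cav1-shRNA and cavtratin, a comparison that leaves out AP control, the split between inducible and constitutive members was not seen in the same form. Sele was at 0.49, Vcam1 at 0.22 and Selp at 0.12, while Icam1 was at −0.34. Thus 3 of the 4 inducible members were higher in the array labelled Cav1-shRNA, beside 22.3% of all genes, and 1 was lower, beside 16.8%. Exact ties made up 60.8% of all genes here. Among constitutive members Cdh5 was at 0.26, Vwf at 0.14 and Icam2 at 0.045, Pecam1 was at −0.034, and Emcn and Esam were equal. The medians were 0.17 for the inducible and 0.023 for the constitutive members, against 0 over all genes. Over the pair of inducible members at or above the floor, Icam1 and Vcam1, the median was −0.061, so the sign of the inducible median depends on Sele and Selp. No member was 2-fold apart, beside 0.819% of the genes that reached the floor.

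The inducible members share regulation by cytokines with other genes, so a list of 18 cytokine-induced NF-kB genes of endothelium was set beside them. It went both ways in cavtratin against AP control, with a median of 0. Of its genes 8 were higher, 6 lower and 4 equal, beside 17.5%, 20.9% and 61.6% of all genes. At least 2-fold higher were Tnfrsf1b, a tumor necrosis factor receptor, at 2.87, Cxcl2, a neutrophil chemokine, at 2.31, and Nfkbia, the inhibitor of NF-kB, at 1.15. At least 2-fold lower were Cxcl10, Ccl2 and Il6, at −3.29, −2.54 and −2.34. In the array labelled Cav1-shRNA against AP control the list had a median of −0.037. It had 4 genes higher, 9 lower and 5 equal, beside 22.4%, 18.5% and 59.1% of all genes. There Tnfrsf1b, at 1.52, was the 1 gene at least 2-fold higher, and Cxcl10, Ccl2, Il6 and Cxcl1, a neutrophil chemokine, were at least 2-fold lower, at −3.90, −3.12, −2.98 and −1.19. Between the array labelled Cav1-shRNA and cavtratin the genes at least 2-fold apart were Cxcl2, Tnfrsf1b and Birc3, an inhibitor of apoptosis, at −2.09, −1.36 and −1.15. Irf1 and Relb, transcription factors of the interferon and NF-kB responses, were equal in all 3 arrays, Relb below the floor. As with other ties, this does not show an equal level.

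Of the leukocyte counter-receptors of the members 12 were measured. In cavtratin against AP control 8 were higher, 1 was lower and 3 were equal, with a median of 0.11, beside 17.5% higher, 20.9% lower and 61.6% equal over all genes. In the array labelled Cav1-shRNA against AP control 5 were higher, 1 was lower and 6 were equal, with a median of 0, beside 22.4%, 18.5% and 59.1% of all genes in the same order. Itgb2, the beta2 chain of the integrins that bind ICAM-1, was at 8.53 in cavtratin, 7.71 in the array labelled Cav1-shRNA and 6.70 in AP control. It was at least 2-fold higher than AP control in both, at 1.82 and 1.01. Itgam, the alpha chain of Mac-1, was at 1.68 in cavtratin and 0.83 in the array labelled Cav1-shRNA. Itgal, the alpha chain of LFA-1, was at 0.11 in cavtratin and equal to AP control in the array labelled Cav1-shRNA. Selplg, which encodes the P-selectin ligand PSGL-1, was at 0.80 and 0.37. Itga4, which pairs with beta1 to bind VCAM-1, was at −0.026 in cavtratin and equal in the array labelled Cav1-shRNA. So Vcam1 was lower while its integrin chain Itga4 differed little, and Icam1 differed by −0.059 in cavtratin while the chains of Mac-1 were at least 2-fold higher there. Of 7 glycosyltransferases that build selectin ligands, Gcnt1, which branches the carrier sugars and lay below the floor on all 3 arrays, was furthest from AP control, at 0.71 in cavtratin and 0.38 in the array labelled Cav1-shRNA.

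Markers of other cell types were set beside the members. Of 16 neutrophil and monocyte markers measured, 12 were higher and 3 lower in cavtratin against AP control, and 13 were higher and 1 lower in the array labelled Cav1-shRNA. Over all genes 17.5% were higher and 20.9% lower in cavtratin, and 22.4% and 18.5% in the array labelled Cav1-shRNA. The median level of these markers was 6.59 in cavtratin, 6.06 in the array labelled Cav1-shRNA and 5.79 in AP control. At least 2-fold higher in cavtratin were 6 of them: S100a8, at 3.74, and S100a9, at 1.69, which encode calprotectin, Csf3r, the receptor of G-CSF, at 1.96, Retnlg at 1.95, the collagenase gene Mmp8 at 1.86, and the chemokine receptor gene Cxcr2 at 1.49. In the array labelled Cav1-shRNA there were 2, Ly6c2, a monocyte surface marker, at 1.49 and S100a8 at 1.46. Ly6c2 was at −0.43 in cavtratin. Of 17 microglia and macrophage markers, Itgam among them, 12 were higher, 1 lower and 4 equal in cavtratin against AP control. In the array labelled Cav1-shRNA 16 were higher, 0 lower and 1 equal. The median levels were 7.81, 7.73 and 7.09 in cavtratin, the array labelled Cav1-shRNA and AP control. Those equal in cavtratin were P2ry12, Trem2, C1qc and Aif1, the last below the floor, and C1qb was at −0.090. So the list did not differ as a whole in cavtratin. At least 2-fold higher in cavtratin were Itgam, the lipopolysaccharide co-receptor gene Cd14 at 2.64, the signalling adaptors Fcer1g at 1.85 and Tyrobp at 1.38, Mpeg1, which encodes a pore-forming protein, at 1.64, and Cd68, a lysosomal glycoprotein, at 1.58. Those in the array labelled Cav1-shRNA were Mpeg1, Fcer1g and Cd68, at 1.21, 1.09 and 1.07. Between the array labelled Cav1-shRNA and cavtratin S100a8 was at −2.28, Retnlg at −1.62, S100a9 at −1.44, Csf3r at −1.39, Cxcr2 at −1.26, Cd14 at −2.06 and Ly6c2 at 1.92. Platelets carry Pecam1, Selp and Vwf too. All 10 platelet markers measured lay below the floor in all 3 arrays, beside 10670 of all 22180 genes. Of these markers, Ppbp was at 1.11 and Pf4 at 0.75 in cavtratin against AP control, and 7 were equal. Ppbp, at 6.46 in cavtratin, lay close below the floor. The part of blood cells in the values of Pecam1, Icam1 and Selp was not tested.

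Lens genes were mostly higher on the cavtratin array. Of 13 measured, 11 were higher, 1 lower and 1 equal in cavtratin against AP control, while 4 were higher, 6 lower and 3 equal in the array labelled Cav1-shRNA. Over all genes 17.5% were higher and 20.9% lower in cavtratin, and 22.4% and 18.5% in the array labelled Cav1-shRNA. The median level of the lens genes was 7.65 in cavtratin, 7.07 in the array labelled Cav1-shRNA and 7.16 in AP control. At least 2-fold higher in cavtratin were 6 crystallin genes, which encode structural proteins of the lens that retinal cells can also make: the alpha crystallins Cryaa and Cryab, at 2.83 and 1.09, the beta crystallins Cryba1, Cryba2 and Cryba4, at 3.08, 1.43 and 1.54, and the gamma crystallin Crygs, at 2.77. None was so in the array labelled Cav1-shRNA against AP control. Against cavtratin, Cryba1, Cryaa, Crygs, Cryba4 and Cryba2 were at −3.45, −3.04, −2.77, −1.42 and −1.35 in the array labelled Cav1-shRNA. Mip and Lim2, membrane proteins of lens fibres, were at −0.06 and 0 in cavtratin against AP control. None of the markers of Muller glia, astrocytes or retinal pigment epithelium, 13, 5 and 10 in number, was 2-fold apart from AP control in either array. The part of tissue content in the members' differences was not tested.

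Other endothelial genes had smaller median differences than the constitutive members. Of 30 markers of endothelium outside the 10 members, 10 were higher, 6 lower and 14 equal in cavtratin against AP control, with a median of 0. In the array labelled Cav1-shRNA against AP control 19 were higher, 2 lower and 9 equal, with a median of 0.036. Over all genes 17.5% were higher and 20.9% lower in cavtratin, and 22.4% and 18.5% in the array labelled Cav1-shRNA. A 2-fold difference was found in 0 of the 30. Cd93, a C-type lectin receptor that myeloid cells carry too, was furthest from AP control, at 0.65 in cavtratin and 0.38 in the array labelled Cav1-shRNA. Ly6c1, a surface marker of microvessels, lay below the floor and was at −0.30 and 0.28. Kdr, the main receptor of VEGF, was at 0.24 in both, Eng, a co-receptor of TGF-beta family ligands, at 0.19 in both, and Cd34 at 0.17 and 0.25. Cldn5, the claudin of barrier endothelium, was at −0.17 in cavtratin and 0.21 in the array labelled Cav1-shRNA.

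Of 9 junction partners of Cdh5, 6 were equal in cavtratin and AP control and 5 in the array labelled Cav1-shRNA and AP control, beside the 61.6% and 59.1% of all genes given above. Ctnnb1, Ctnna1 and Jup, the catenins and plakoglobin that tie cadherins to the cytoskeleton, were equal in all 3 arrays, and Ptprb, the endothelial phosphatase that binds VE-cadherin, was at −0.022 and 0.14. Among 20 other adhesion and transmigration molecules, 11 in cavtratin and 9 in the array labelled Cav1-shRNA were equal to AP control, and 0 were 2-fold apart. F11r, the junctional molecule JAM-A, was at 0.21 and 0.31, and Pvr, a nectin-like molecule used in transmigration, at −0.076 and −0.20. That list shares Cd34, Cldn5, Mcam and Podxl with the endothelial markers. Icam4 and then Icam5 follow Icam1 in the order of coding genes on chromosome 9. Icam4 was at 5.19 in all 3 arrays, and Icam5 was at 6.08 in cavtratin and in the array labelled Cav1-shRNA, against 6.18 in AP control. Both lay below the floor.

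Of 13 endothelial transcription factors, 5 were higher, 3 lower and 5 equal in cavtratin against AP control, and 6 were higher, 2 lower and 5 equal in the array labelled Cav1-shRNA. None was 2-fold apart. Among them Ets2, at 0.51 in cavtratin, and Klf2, a flow-responsive factor below the floor, at 0.47 in cavtratin and 0.41 in the array labelled Cav1-shRNA, were furthest from AP control. Erg, also below the floor, was equal in all 3 arrays. Of 11 measured genes of Weibel-Palade bodies, which hold Vwf and Selp, Plat, tissue plasminogen activator, was at least 2-fold lower in cavtratin, at −1.05, and at −0.65 in the array labelled Cav1-shRNA. Cd63, a tetraspanin of these granules and of lysosomes, was at 0.66 and 0.15, and Edn1, the vasoconstrictor endothelin-1, at −0.24 and −0.25. In all, 5 of the 11 were higher, 3 lower and 3 equal in cavtratin, and 6 were higher, 4 lower and 1 equal in the array labelled Cav1-shRNA. Of all genes 17.5% were higher, 20.9% lower and 61.6% equal in cavtratin, and 22.4%, 18.5% and 59.1% in the array labelled Cav1-shRNA. The plot by gene list shows the members beside several of the lists.

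**Figure D4:**
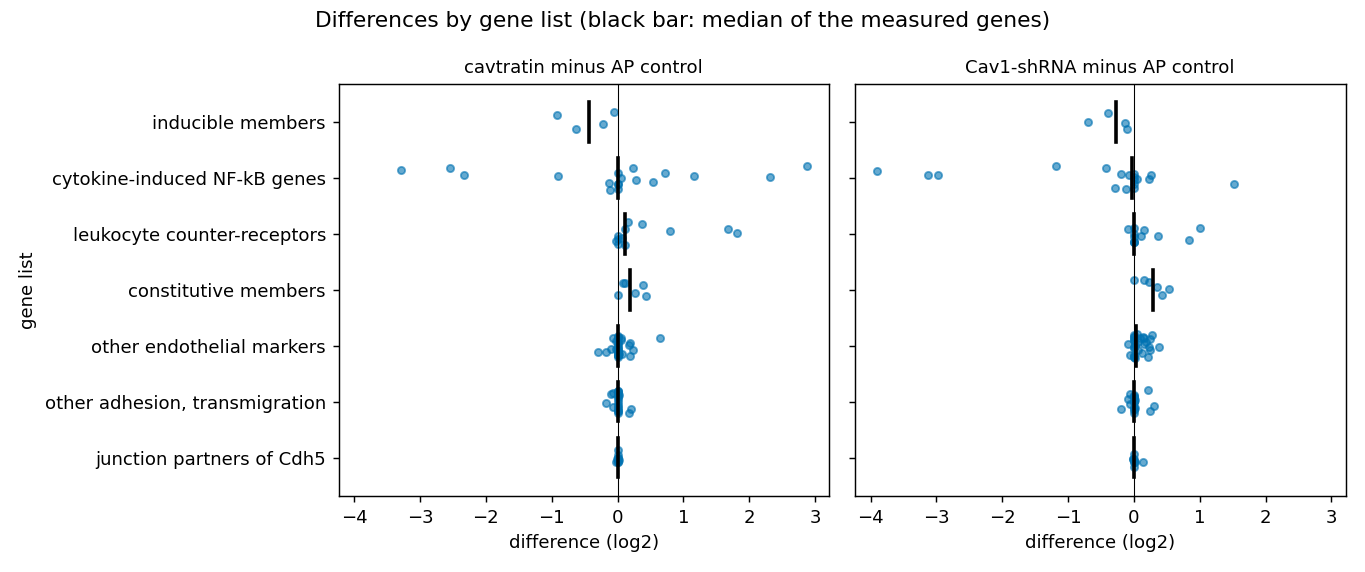
Log2 differences of single genes (points) and their median (black bar) by gene list, for cavtratin minus AP control and Cav1-shRNA minus AP control. The median lies at −0.43 and −0.27 for the inducible members and at 0.19 and 0.29 for the constitutive members, whereas the cytokine-induced NF-kB genes spread over both sides in cavtratin. Sele, Selp and Icam2 are among the points though below the floor, and both inducible medians rest partly or wholly on such genes.

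The largest single difference from AP control was that of Vcam1 in cavtratin among the inducible members and that of Cdh5 in the array labelled Cav1-shRNA among the constitutive ones, although in cavtratin Emcn and Pecam1 lay further from AP control than Cdh5. For Vcam1 and Cdh5 the genes with the nearest pair of differences were sought over the 3 arrays, by Euclidean distance. Nearest to Vcam1 were Cfb, complement factor B, at a distance of 0.020, Ano1, a calcium-activated chloride channel, at 0.083, Gbp3, an interferon-inducible GTPase, at 0.092, Ptx3, a soluble pentraxin, at 0.13, and Plat at 0.14. Cfb was at 6.77 in cavtratin, 6.97 in the array labelled Cav1-shRNA and 7.67 in AP control. Nearest to Cdh5 were Unc93b1, which escorts endosomal Toll-like receptors, at 0.0074, Nupr1, a stress-induced nuclear protein, at 0.094, Emp1, a tetraspan membrane protein, at 0.096, Stc2, a secreted stanniocalcin, at 0.12, and Epsti1, an interferon-inducible gene, at 0.13. The distance rests on 3 arrays and says nothing of what the genes do together.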

How the data were processed

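Pooled mouse retinae were measured on 3 arrays, 1 per group. The deposited values were taken to be log2, a base inferred from their range, and each belongs to 1 probe set. How the authors summarised, background-corrected and normalized them is not given in the sources used here. Per the labels' protocols, total RNA was extracted with TRIZOL and labelled as biotin cDNA.

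Of 41345 probe sets, 23521 had 1 symbol in GEO's platform annotation (which may be out of date), 1814 had several and 16010 were not listed, and 23328 of the 23521 matched RefSeq (GRCm38.p6) by Entrez identifier. The probe set with the highest mean was kept per gene. Differences were taken between arrays, and a gene counted as 2-fold apart at a difference of 1 with the higher array at or above the floor of 6.50. The number of arrays limits the precision, and no test was possible. Equality means within 1e-09. The members, lists and rules for naming genes were chosen with earlier results of these data known. Named were all members, every list gene at least 2-fold apart, otherwise up to 4 with the largest differences, and the 5 nearest genes of Vcam1 and Cdh5. Other genes given as unchanged or as neighbours were named after their values were seen. Counting was tested on simulated data without ties, with large shifts in genes well above the floor. That checks the counting rule only and not its precision in these data. Python 3.11.15, numpy 2.4.6, pandas 2.3.3 and statsmodels 0.14.6 were used.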

Additional observations from a re-analysis of the deposited data

How the results depend on the processing

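No paired analysis was possible because each group had 1 array. The 10 members' differences in the 3 comparisons were recomputed after centring on array medians, quantile normalization, removal of a loess trend (span 0.3), and averaging of probe sets. Of 120 such values, 119 moved by less than the SD between probe sets of one gene with no change of sign. The exception was Pecam1 in the array labelled Cav1-shRNA against cavtratin, at 0.017 after centring. Each member had 1 probe set, so averaging could not move the 30 values it gave. Removal of the loess trend left every member's value nearly as it was. Only centring and quantile normalization could thus show a dependence on the processing. With Icam1 and Vcam1 alone, the members that reached the floor, the inducible median was −0.55 in the array labelled Cav1-shRNA against AP control and −0.061 against cavtratin. At 1.5-fold, 1 member that reached the floor, Vcam1, was counted as apart in each comparison with AP control.

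The count of all genes at least 2-fold apart was 167 in cavtratin against AP control, 53 in the array labelled Cav1-shRNA against AP control and 94 in the array labelled Cav1-shRNA against cavtratin. In that order it was 86, 21 and 56 with a floor at the 75th percentile, 278, 145 and 186 at 1.5-fold, and 91, 15 and 27 at 3-fold. The cause of these changes is the thresholds themselves. Sele, Selp and Icam2 lay below the floor on every array, which limits what their differences show.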

Other observations

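Mural cells wrap the endothelium, and of 12 markers of pericytes and smooth muscle 4 were higher, 4 lower and 4 equal in cavtratin against AP control, while 10 were higher, none lower and 2 equal in the array labelled Cav1-shRNA against AP control. The medians were 0 and 0.074. Of all genes 17.5% were higher and 20.9% lower in cavtratin, and 22.4% and 18.5% in the array labelled Cav1-shRNA. Anpep, an aminopeptidase of pericytes that myeloid cells carry too, was 0.61 above AP control in both cavtratin and the array labelled Cav1-shRNA, with 6.39 in AP control. Acta2, smooth muscle actin, was at 8.59 in cavtratin, 8.50 in the array labelled Cav1-shRNA and 8.13 in AP control. Pdgfrb, the receptor that recruits pericytes, was 0.12 above AP control in both arrays, and Rgs5 was at −0.06 and 0.03. None of the 12 was 2-fold apart.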
